A study of Mus musculus with 42 samples.

Results

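Public clonotypes are T-cell receptors that arise in the same form in different individuals. Here a clonotype was defined by the CDR3 amino acids of the T-cell receptor β (TCRβ) chain together with the V and the J segment. Public clonotypes were chosen by their presence, at 1 read or more, in libraries of at least 3 different mice, so this presence is not a result. The CDR3 had to start with Cys, end with Phe and be 8 to 20 residues long. Of 23225 such amino acid clonotypes, 169 (0.728%) were public, 156 of them in 3 mice and 13 in all 4 mice analysed. A further 1184 were found in 2 mice and 21872 in 1 mouse.

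The study sorted T cells from thymus, spleen and lung of mice that all carried Foxn1-Cre, which is active in thymic epithelial cells, together with a floxed allele of NIK, a kinase of the non-canonical NF-κB pathway. Mice called WT were Foxn1Cre x NIKfl/wt, with 1 floxed allele, and mice called KO were Foxn1Cre x NIKfl/fl, so the control is a heterozygote that also carries Cre. Conventional T cells were gated as CD4+ or CD8+ cells that were CD25- and CD62L+, and regulatory T cells (Tregs) as CD4+ with high CD25. Files of 5 libraries were used. Mouse 614 (WT) gave spleen CD8 cells, mouse 617 (KO) gave spleen CD8 and lung CD4 cells, mouse 597 (KO) gave spleen CD4 cells, and mouse 618 (KO) gave Tregs of the thymus. Age and strain background are not given in the labels. The assay reads receptor chains only, so neither the genotype nor the sorted cell types could be checked against other markers. The other 37 of the series' 42 samples were not analysed here. The deposited read counts summed to between 98655 and 205882 per library. The tables gave between 1560 and 3392 clonotypes in the 4 KO libraries and 14659 in WT spleen CD8. Each group had 1 library, and the libraries share the public clonotypes by definition, so no p-value was computed and no difference between genotypes, lineages or organs was tested.

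A TCRβ chain is assembled in the thymus by joining a V, a D and a J segment, and the CDR3 loop spans the joints and contacts the peptide. Enzymes trim the segment ends, and terminal deoxynucleotidyl transferase adds bases that no germline segment encodes, which makes most CDR3s unlikely to form again in another animal. Public CDR3s are known for needing few such bases and for arising through different nucleotide joints that encode the same residues, a process called convergent recombination. The TCRβ segments named here lie on mouse chromosome 6.

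The most widespread joints show what the public CDR3s are made of. The following 7 nucleotide sequences were each present in all 4 mice, and capitals mark the bases between the end of the V segment and the start of the J segment, 5′ to 3′.
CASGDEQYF (TRBV13-2, TRBJ2-7): tgtgccagcggtgatgaacagtacttc
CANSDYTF (TRBV15, TRBJ1-2): tgtgcaaactccgactacaccttc
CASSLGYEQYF (TRBV3, TRBJ2-7): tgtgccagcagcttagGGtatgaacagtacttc
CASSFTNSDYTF (TRBV3, TRBJ1-2): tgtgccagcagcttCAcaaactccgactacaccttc
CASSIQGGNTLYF (TRBV19, TRBJ1-3): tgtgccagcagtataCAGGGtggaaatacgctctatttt
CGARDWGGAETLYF (TRBV20, TRBJ2-3): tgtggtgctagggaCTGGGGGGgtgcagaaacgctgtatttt
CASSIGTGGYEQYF (TRBV19, TRBJ2-7): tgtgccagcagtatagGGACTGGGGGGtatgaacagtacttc
In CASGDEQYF the listed V end (16 bases) and J start (14 bases) overlapped within 27 bases, so no base lay between them. The same held for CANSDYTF, where the V segment gave 5 bases and the J segment 22 of 24. In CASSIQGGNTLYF, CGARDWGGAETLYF and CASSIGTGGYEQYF a D segment was listed and filled the whole space between V and J, with 0 inserted bases. An eighth sequence found in all 4 mice encoded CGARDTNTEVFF (TRBV20, TRBJ1-1), with 2 bases between V and J. It falls outside the naming rule and is mentioned for completeness.

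A second set shows how a single public CDR3 was encoded in many ways. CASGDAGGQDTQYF (TRBV13-2, TRBJ2-5) had 9 nucleotide forms, the most of any public clonotype, and the 5 with most reads are shown with the same use of capitals.
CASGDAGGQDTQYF form a: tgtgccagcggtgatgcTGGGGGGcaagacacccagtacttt
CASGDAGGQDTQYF form b: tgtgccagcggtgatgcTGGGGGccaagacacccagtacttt
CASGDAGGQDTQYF form c: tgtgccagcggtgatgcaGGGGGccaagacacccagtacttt
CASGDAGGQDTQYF form d: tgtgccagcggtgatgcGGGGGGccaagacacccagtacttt
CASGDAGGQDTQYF form e: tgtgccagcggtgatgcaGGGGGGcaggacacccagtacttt
Form a had 47 reads, all in KO spleen CD4. Form b had 30 reads in KO lung CD4, 2 in KO spleen CD8 and 13 in WT spleen CD8. The other 3 forms shown were read in WT spleen CD8 alone, with 33 reads for form c and 7 each for forms d and e. All 5 were listed with a D segment and with 0 inserted bases. Forms a to d differed in where the listed V, D and J segments ended. Form e also differed from them by a base within its listed J segment, which no trimming at the joint gives. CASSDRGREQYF (TRBV13-3, TRBJ2-7) is the contrasting case, a public clonotype in which no nucleotide form was found in more than 1 mouse.
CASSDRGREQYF form a: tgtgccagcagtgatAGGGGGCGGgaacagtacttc
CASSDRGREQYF form b: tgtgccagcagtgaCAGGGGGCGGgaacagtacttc
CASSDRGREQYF form c: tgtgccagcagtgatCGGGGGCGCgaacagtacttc
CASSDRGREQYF form d: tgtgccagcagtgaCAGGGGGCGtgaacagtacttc
Forms a and b had 58 and 27 reads in the Treg library, form c had 11 in KO spleen CD8 and form d had 5 in WT spleen CD8. The first 3 carried 1 inserted base each and form d carried 0.

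Public clonotypes had almost no inserted bases. Among those with a listed D segment, the share without any inserted base was 93.9% in WT spleen CD8 (77 of 82, 95% interval 86.3 to 98.0), 86.0% in KO spleen CD8 (43 of 50, 73.3 to 94.2), 95.9% in KO lung CD4 (47 of 49, 86.0 to 99.5), 94.4% in KO spleen CD4 (51 of 54, 84.6 to 98.8) and 73.9% in thymus Tregs (34 of 46, 58.9 to 85.7). The clonotypes of 1 mouse gave 47.5%, 54.6%, 54.5%, 52.2% and 22.3% in the same order. The public share was higher in 5 of 5 libraries, with no overlap of the exact Clopper-Pearson intervals within any library. The mean difference was 44.2 ± 6.43 percentage points (SD over 4 mice, mouse 617 as the mean of its 2 libraries). With the 1000 most read clonotypes per library it was 19.5, and with all bases between V and J counted as inserted it was 6.52. It was 25.1 percentage points without the WT spleen CD8 library, where 24 public clonotypes were left. These intervals, like all others given here, cover counting error only, because each group had 1 library and clonotypes are not replicates. PCR reads without molecular identifiers are also not independent molecules.

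The Treg library had the highest mean number of inserted bases in both classes. It was the only library of thymus and of mouse 618, so cell type, organ and animal cannot be told apart. For public clonotypes, the interval of its share without inserted bases overlapped those of KO spleen CD8 and KO spleen CD4. Clonotypes of 1 mouse in the Treg library held 2.30 inserted bases on average, against 1.04 to 1.26 in the other libraries. Its public clonotypes held 0.326, against 0.0612 to 0.160. Within every library the public mean was lower, by 1.33 ± 0.435 bases averaged over the mice. Over all libraries, taking the most read form of each clonotype, 85 public clonotypes had a listed D segment. Of these, 78 (91.8%) had 0 inserted bases and the most was 2, whereas 45.5% of 15530 clonotypes of 1 mouse had 0 and the most was 18. The clonotypes of 2 mice lay between, with 83.5% of 685. The 5 public clonotypes with most inserted bases were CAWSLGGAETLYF (TRBV22, TRBJ2-3) with 2 and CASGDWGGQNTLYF, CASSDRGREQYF, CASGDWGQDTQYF and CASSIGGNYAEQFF with 1 each. The other 2 with 1 inserted base, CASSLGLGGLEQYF (TRBV16) and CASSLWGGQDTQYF (TRBV12-2), had fewer reads. The remaining public clonotypes with a listed D segment had 0. RefSeq annotates TRBV22 as a pseudogene, and whether the V end listed for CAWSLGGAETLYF, and so its count of 2, is right was not tested.

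**Figure D1:**
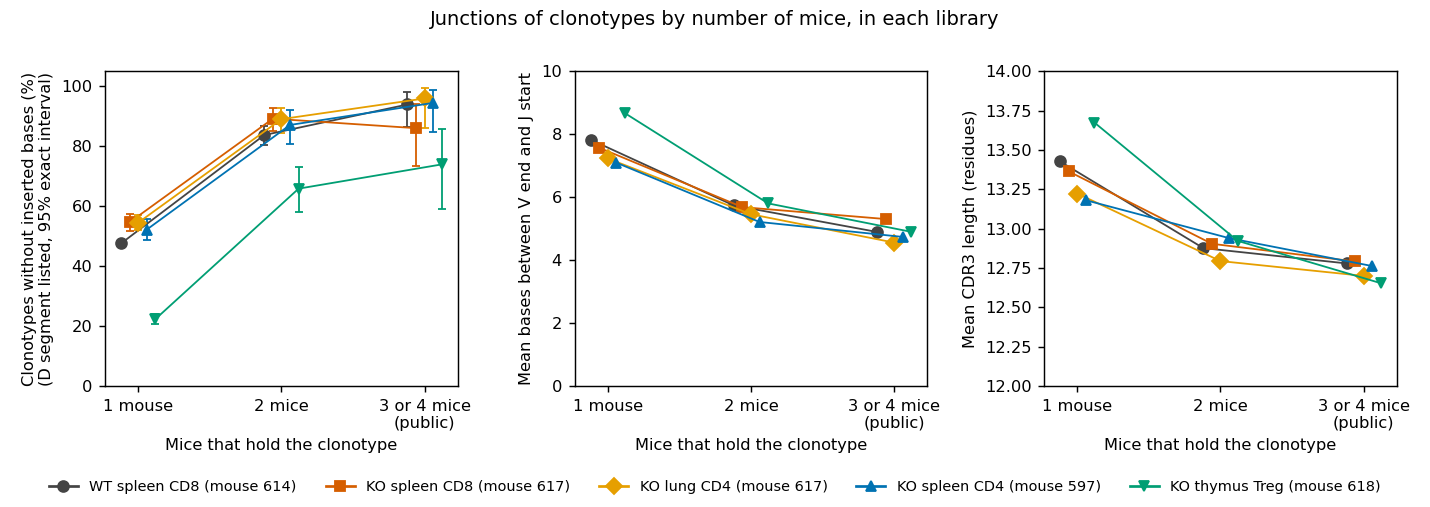
Left, percent of clonotypes without inserted bases among those with a listed D segment (bars are exact 95% intervals), middle, mean bases between the V end and the J start, right, mean CDR3 length in residues, each against the number of mice that hold the clonotype, with 1 line per library. The length axis runs from 12 to 14 residues and does not start at 0. In each library the public clonotypes have a higher share without inserted bases, fewer bases between V and J and shorter CDR3s than the clonotypes of 1 mouse.

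The space between V and J was also short, counted whether or not a D segment was listed. Public clonotypes had on average 4.89 bases there in WT spleen CD8, 5.30 in KO spleen CD8, 4.55 in KO lung CD4, 4.73 in KO spleen CD4 and 4.89 in Tregs. The corresponding means for clonotypes of 1 mouse were 7.83, 7.57, 7.23, 7.09 and 8.67. The public mean was lower in each of the 5 libraries, and the 5 public means lay within 1 base of each other. By the rule the libraries share many public clonotypes, so the likeness of their public means, here and for length below, is partly built in. More of the V segment was left, at 15.1 to 15.5 bases against 13.9 to 14.3, and less of the D segment, at 7.31 to 7.50 bases against 8.09 to 8.47. The J segment contributed about as much to both, the mean difference being 0.00535 ± 0.224 bases. A D segment was missing from the listing for 41.9% to 52.4% of public clonotypes and 28.0% to 34.0% of those of 1 mouse. The V and J ends overlapped in 8.74% to 12.6% against 3.57% to 6.40%. Both shares were higher among public clonotypes in 5 of 5 libraries. How the caller decides to list a D segment is not given in the sources used here, and short D remnants cannot be told apart from inserted bases in those joints.

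Public CDR3s were shorter by about the length of 1 residue or less. Their mean was 12.7 to 12.8 residues in every library, against 13.2 to 13.7 for clonotypes of 1 mouse, a mean difference of -0.659 ± 0.259 residues. Of the 169 public clonotypes, 61 had 13 residues, 40 had 12 and 37 had 14. No public CDR3 was longer than 15 residues. A count of 0 of 169 allows a share of up to 1.78% (3 counts of the total), and 16 residues alone accounted for 5.13% of the clonotypes of 1 mouse. Among CDR3s of 13 residues alone, the share without inserted bases was higher by 33.4 percentage points in public clonotypes. With clonotypes of 1 mouse weighted to the V and J pairs of the public ones, an alternative chosen after seeing the data, the differences were -1.29 inserted bases and -0.571 residues.

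The frequency of motifs that D segments can encode differed as well. These motifs were looked for anywhere in the CDR3 residues, so V or J bases can supply part of them. The motif DWG, which the second D segment (TRBD2) encodes in a reading frame of its own, was present in 14.6% of public clonotypes in WT spleen CD8, 15.1% in KO spleen CD8, 18.4% in KO lung CD4, 17.4% in KO spleen CD4 and 12.6% in Tregs. In the clonotypes of 1 mouse it was present in 5.35% to 8.33%. The public share was 1.81 to 2.96 times as high and higher in 5 of 5 libraries, and the intervals overlapped in KO spleen CD8 (8.30 to 24.5 against 7.11 to 9.70). In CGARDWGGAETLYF and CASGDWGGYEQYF the first bases of the Asp codon of DWG were listed as V bases. TRBV13-2, the V segment of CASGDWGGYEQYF, was itself more frequent among public clonotypes. The part of V usage in the shares of these motifs was not tested. DRG, which the first D segment (TRBD1) can encode, was found in 3.67% to 8.14% against 2.69% to 4.40%, with intervals that overlapped in each library. GTG, GQG and GLG, the other main D-encoded motifs, were less frequent among public clonotypes in 5 of 5 libraries, with ratios of 0.307 to 0.514, 0.218 to 0.574 and 0.464 to 0.643. Those shares rested on 1 to 4 public clonotypes per library, and the public intervals reached the 1-mouse share in several libraries. TRBD1 made up 38.8% to 52.2% of the listed D segments in public clonotypes and 53.5% to 60.7% in those of 1 mouse. A pair of hydrophobic residues at CDR3 positions 6 and 7, counted from the Cys, a feature linked to self-reactivity, was found in at most 1 public clonotype per library, which is too few to compare with the 0.531% to 1.52% in clonotypes of 1 mouse.

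V segment usage was compared within each library, and a segment was called where the public share was at least 125% or at most 80% of the 1-mouse share in all 5 libraries. Of 20 V segments with at least 1% in some library, 2 (10%) were called higher and 8 (40%) lower. With this few public clonotypes the background of lower calls is high, so the calls are read below against the exact interval over the 169 clonotypes. TRBV13-2 (chromosome 6, 41121396 to 41121832, build GRCm38.p6, which is mm10) was the V segment of 30 public clonotypes. Its public share was 19.0% in WT spleen CD8, 20.9% in KO spleen CD8, 17.5% in KO lung CD4, 15.6% in KO spleen CD4 and 18.9% in Tregs, against 7.66% to 9.25% in clonotypes of 1 mouse, a ratio of 1.91 to 2.67. TRBV1 (chromosome 6, 40891296 to 40891885) was the V segment of 20, with 11.4%, 12.8%, 13.6%, 11.9% and 10.5% in the same order against 5.37% to 6.99%, a ratio of 1.71 to 2.16. Over all libraries the interval for TRBV13-2 (12.3% to 24.4%) and for TRBV1 (7.38% to 17.7%) lay above the 1-mouse shares of 8.33% and 5.64% pooled and of 8.38% and 6.03% over the mice.

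Among the lower calls, TRBV13-1 alone had a 1-mouse share outside the public interval both when the libraries were pooled and when the mice were averaged. It gave 2 public clonotypes (1.18%, interval 0.144 to 4.21), against 5.64% pooled and 5.0% over the mice. Pooled shares are mostly those of WT spleen CD8, which gave most clonotypes of 1 mouse. TRBV13-3 gave 4 public clonotypes (2.37%, 0.649 to 5.95), and its 1-mouse share was outside the interval when pooled (6.05%) and inside over the mice (5.67%). TRBV14 and TRBV29 gave 1 each (0.592%, 0.0150 to 3.25), and their 1-mouse shares were also outside when pooled (4.48% and 4.22%) and inside over the mice (3.16% and 2.80%). TRBV13-1, TRBV13-2 and TRBV13-3 belong to the same subgroup of V segments, so its members went in both directions. TRBV4 and TRBV22 also gave 1 each. RefSeq annotates TRBV22 and TRBV29 as pseudogenes, and the V names are used here as they were listed. The share of TRBV4 in clonotypes of 1 mouse lay inside the interval either way (2.85% and 2.87%), and that of TRBV22 lay inside when pooled (2.28%) and outside over the mice (3.75%). TRBV23 and TRBV24 had none, which by the same limit of 3 counts allows a share of up to 1.78%, above their 1-mouse shares of 0.626% and 0.576% pooled and 0.837% and 0.847% over the mice, so no lower share was detectable at this number. TRBV20 was not called, with ratios of 1.09 to 2.03.

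TRBV13-2 and TRBV1 are also among the V segments favoured by other T cells that the gates could hold. A CD62L+ gate is given for the conventional cells and not for Tregs, and how many such cells a library held was not measured. The segments known from natural killer T (NKT) cells, TRBV13-2, TRBV1 and TRBV29, together gave 27.5% to 34.9% of public clonotypes per library against 16.1% to 19.1% of those of 1 mouse, with TRBV29 called in the other direction. Those known from mucosal-associated invariant T (MAIT) cells, TRBV19, TRBV13-2 and TRBV13-3, gave 27.5% to 33.7% against 21.3% to 26.8%. In that list TRBV13-2 was called higher, TRBV13-3 was called lower and TRBV19 was not called, with a ratio above 1 in 2 of 5 libraries. The files hold β chains only, so the invariant α chains that define these cells were not read, and their part in the result was not tested. The V segments that bind superantigens of endogenous retroviruses gave 34.0% to 46.5% of public clonotypes against 40.9% to 52.6%, lower in 5 of 5 libraries. The intervals were apart in WT spleen CD8 alone (32.8 to 48.6 against 51.8 to 53.5) and overlapped in each KO library. Of the 10 segments on that list, 3 (TRBV13-3, TRBV24 and TRBV29) were called lower and none higher, beside 40% lower and 10% higher over all V segments tested, and for TRBV24 no lower share was detectable.

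**Figure D2:**
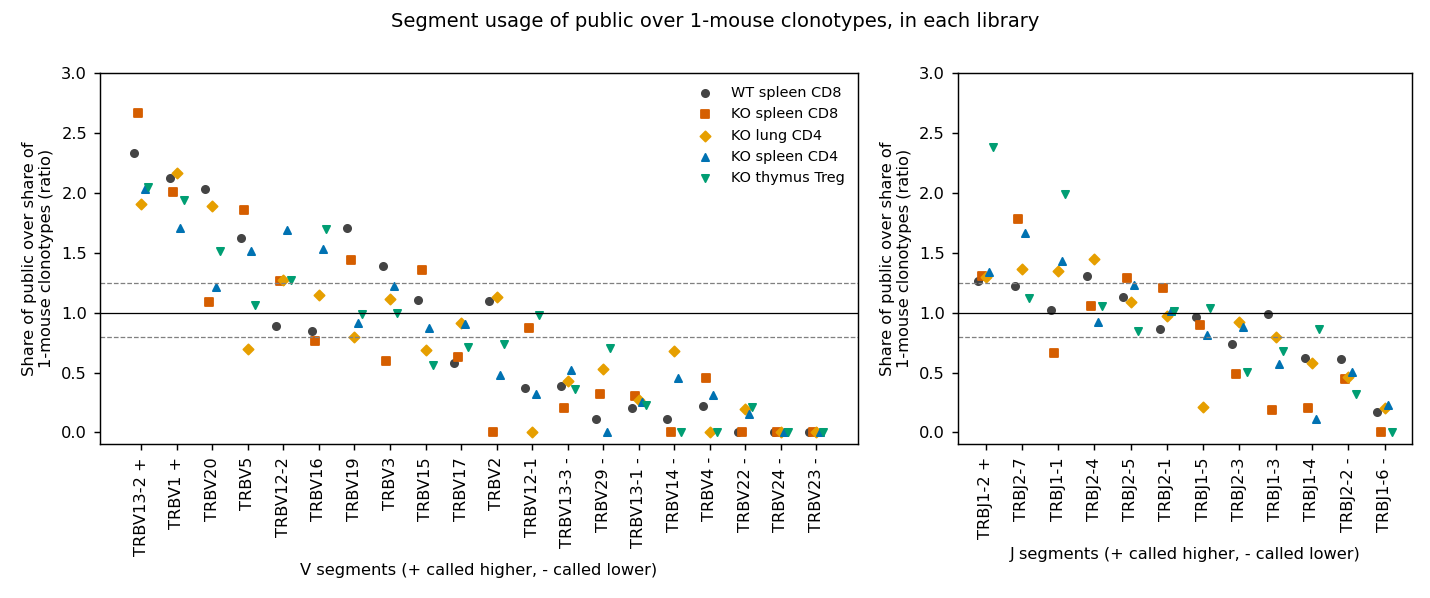
Ratio of the share of public clonotypes to the share of 1-mouse clonotypes that use each V segment (left) and J segment (right), with 1 point per library. The solid line marks equal shares, the dashed lines the limits for a call, and + or - after a name marks a segment past the limit in all 5 libraries. TRBV13-2 and TRBV1 lie at 1.71 or higher in each library.

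J usage differed less. Of 12 J segments, 1 (8.33%) was called higher and 2 (16.7%) lower. TRBJ1-2 (chromosome 6, 41534001 to 41534048) was called higher with ratios of 1.26 to 2.38, but its 1-mouse share of 5.67% lay inside the public interval of 3.72% to 12.1%. TRBJ1-6 gave 1 public clonotype (0.592%, 0.0150 to 3.25) against 3.87% of those of 1 mouse. TRBJ2-2 gave 5 (2.96%) against 5.54%, which lay inside its interval. TRBJ2-7 was the most used J segment in both classes, with 45 public clonotypes (26.6%) against 21.1%, and was not called. The share of the TRBJ1 cluster was lower in 4 libraries and higher in the Treg library, where it was 36.8% against 29.8%. Its mean difference of -4.18 ± 8.16 percentage points was within the spread between mice and changed sign under other settings. The most frequent V and J pair was TRBV13-2 with TRBJ2-7, with 8 public clonotypes (4.73%) against 1.81% of those of 1 mouse.

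Some CDR3s were public under more than 1 V segment. The 169 clonotypes held 158 distinct CDR3 amino acid sequences, and this was so for 10 of them. The matching share was not computed for clonotypes of 1 mouse, so whether 10 of 158 is unusual was not tested. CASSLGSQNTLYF was public with TRBV12-2, with TRBV15 and with TRBV16. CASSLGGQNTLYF, described below for its reads, was public with TRBV12-2 and with TRBV15. Public clonotypes also had close relatives in the same library. A clonotype with the same V and J and 1 residue changed was present for 89.9% of public clonotypes in WT spleen CD8, 57.0% in KO spleen CD8, 65.0% in KO lung CD4, 41.3% in KO spleen CD4 and 46.3% in Tregs. For clonotypes of 1 mouse this share was 54.2%, 26.8%, 32.1%, 22.0% and 21.4%, so it was 1.66 to 2.16 times as high among public clonotypes. The share was highest in the library with most clonotypes in both classes. Relatives were counted at 1 read or more and without an error filter. The part of reads, sequencing errors and V and J usage in these shares was not tested.

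Several nucleotide forms were often seen for a public clonotype. The 169 public clonotypes were encoded by 400 nucleotide forms, and 121 had more than 1 form over the 5 libraries. By the rule a public clonotype is read in at least 3 libraries, which gives it more occasions to show another form. The counts over all libraries are therefore not a comparison with clonotypes of 1 mouse. Within a single library, 38.6% of public clonotypes had at least 2 forms in WT spleen CD8 (61 of 158), 11.6% in KO spleen CD8, 10.7% in KO lung CD4, 7.34% in KO spleen CD4 and 8.42% in Tregs. Clonotypes of 1 mouse gave 6.49%, 3.34%, 3.18%, 2.19% and 2.64%. The ratio was 3.19 to 5.95. The intervals did not overlap in any library, and they came closest in KO spleen CD4, where the lower bound for public clonotypes was 3.22% and the upper bound for those of 1 mouse 3.19%. The 5 public clonotypes with most forms in a library, ties broken by reads, were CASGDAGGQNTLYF, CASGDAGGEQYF, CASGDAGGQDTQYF and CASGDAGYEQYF, which all use TRBV13-2 and share the residues CASGDAG, and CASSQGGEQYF with TRBV5. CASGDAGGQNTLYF had 6 forms in 1 library. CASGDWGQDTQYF and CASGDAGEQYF, both with TRBV13-2, had as many as 4 forms in a library, the same number as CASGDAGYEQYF and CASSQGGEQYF.

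For 82 public clonotypes (48.5%) a single nucleotide form was itself found in at least 3 mice, for 72 the most widespread form was found in 2 mice, and for 15 no form was found in more than 1 mouse. There were 83 such widespread forms, and of the 41 with a listed D segment 40 had 0 inserted bases. Between 2 mice, the shared public clonotypes had at least 1 nucleotide form in common for 51.2% (mice 617 and 618) to 74.1% (mice 614 and 617). For clonotypes of exactly 2 mice this share was 39.0% (mice 617 and 618) to 63.3% (mice 597 and 617). The public share was the lower one for mice 597 and 617 (60.2% against 63.3%) and for mice 597 and 618 (51.4% against 55.3%). It was the higher one in every other pair. Within mouse 617, whose lung CD4 and spleen CD8 libraries share an animal, the common form was present for 21 of 31 shared public clonotypes (67.7%, 48.6 to 83.3). For the 128 clonotypes that these libraries shared and no other mouse held, it was present for 91.4% (85.1 to 95.6). The intervals, which cover counting error only, did not overlap. In this animal, clonotypes shared by the CD4 and CD8 libraries had the same joint more often when they were private to it. Both shares come from 1 animal, and the part of carry-over between its libraries was not tested.

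How often clonotypes of other mice were present in a given mouse was described by leaving out each mouse in turn. Of the clonotypes in 1 of the other 3 mice, 10.6% were found in mouse 614, 4.56% in mouse 617, 1.26% in mouse 597 and 1.41% in mouse 618. Of those in 2 of the other mice, 42.8% (37.4 to 48.2), 30.0% (26.0 to 34.3), 9.44% (7.71 to 11.4) and 8.22% (6.59 to 10.1) were found in the same mice. Of those in all 3 other mice, 54.2%, 54.2%, 17.8% and 14.9% were found, each count being 13. The share was higher for 2 other mice than for 1 in 4 of 4 mice. This is a description, since a clonotype of 2 other mice found again in the left-out mouse is public by definition, and each is counted for several left-out mice. The share was highest for mouse 614, whose library held most clonotypes, and the part of library size in these shares was not tested.

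Inserted bases also went with recurrence among clonotypes seen in 1 other mouse. With 0 inserted bases, 16.9% were found in mouse 614, against 2.87% with 1 to 3 and 0.952% with 4 or more. Mouse 617 gave 7.20%, 1.22% and 0.256%, and mouse 597 gave 1.76%, 0.361% and 0.172%. Mouse 618 gave 1.73%, 0.729% and 0 of 1340, which allows a share of up to 0.224% (3 counts of the total). The order was the same in 4 of 4 mice. The class with 4 or more rested on few clonotypes, with 8 found in mouse 614, 4 in mouse 617 and 3 in mouse 597. In mouse 597 its interval (0.0355 to 0.502) overlapped that of 1 to 3 inserted bases (0.229 to 0.541). For CDR3s of 15 to 20 residues the share was 3.36%, 1.21%, 0.257% and 0.592% in mice 614, 617, 597 and 618, for those of 13 or 14 residues it was 11.4%, 5.17%, 1.58% and 1.53%, and for those of 8 to 12 residues it was 14.3%, 6.21%, 1.47% and 1.82%. The longest class had the lowest share in 4 of 4 mice, and in mouse 597 the middle class had the highest.

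**Figure D3:**
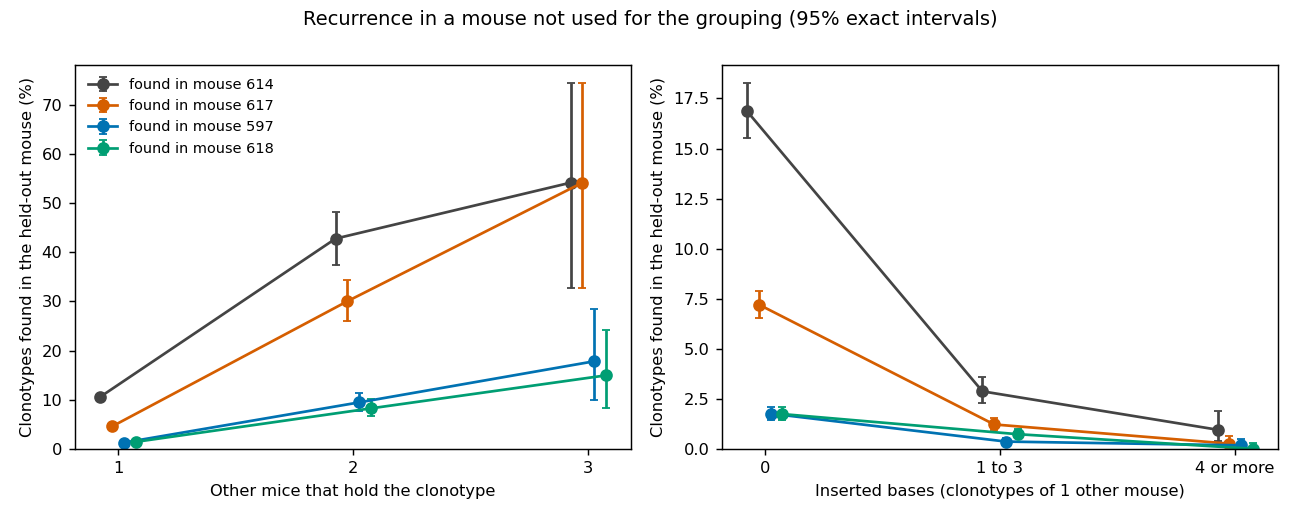
Percent of clonotypes found in a mouse left out of the grouping, against the number of other mice that hold them (left) and, for clonotypes of 1 other mouse, against their number of inserted bases (right), with 1 line per left-out mouse and exact 95% intervals. In all 4 mice the share is higher for clonotypes of 2 other mice than of 1, and highest for those with 0 inserted bases.

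The lineages and organs of the public clonotypes follow in part from the libraries, since any 3 of these 4 mice include at least 2 lineages. Of the 169, 58 were found among conventional CD4, CD8 and Treg cells alike and 111 in 2 of the 3 lineages. The WT spleen CD8 library held 158 of them, KO spleen CD4 109, KO lung CD4 103, Tregs 95 and KO spleen CD8 86. They made up 1.08% of the clonotypes in WT spleen CD8 (0.917 to 1.26), 3.59% in KO spleen CD8 (2.88 to 4.41), 3.44% in KO lung CD4 (2.82 to 4.16), 6.99% in KO spleen CD4 (5.77 to 8.37) and 2.80% in Tregs (2.27 to 3.41). The number of clonotypes per library differed in the opposite order at both ends, with 14659 in WT spleen CD8 and 1560 in KO spleen CD4, and its part in these shares was not tested. The largest group, 74 clonotypes, was found in mice 597, 614 and 617, and 60 were found in mice 614, 617 and 618. The 3 KO mice without the WT mouse shared 11. Without the WT spleen CD8 library 24 public clonotypes would be left in place of 169. Of 158 public clonotypes in mouse 617, 31 were in both of its libraries, 72 in lung CD4 alone and 55 in spleen CD8 alone.

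Public clonotypes had more reads than those of 1 mouse. Their median was 13.5 reads in WT spleen CD8, 14 in KO spleen CD8, 21 in KO lung CD4, 48 in KO spleen CD4 and 42 in Tregs, against 7, 8, 10, 25.5 and 34. They held 2.44%, 8.46%, 4.76%, 8.83% and 3.22% of the reads in that order, which was 2.26, 2.36, 1.38, 1.26 and 1.15 times their share of the clonotypes. Clonotypes of 2 mice had medians of 10, 14, 18, 36 and 44 reads in the same order. The public median was thus equal to theirs in KO spleen CD8 and below it in Tregs. In KO spleen CD8 the 3 most read public clonotypes held 57.4% of the public reads. Reads bear on the rule itself, since a clonotype has to be detected to be counted in a mouse. Public clonotypes numbered 68 when each form needed at least 10 reads in a library.

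**Figure D4:**
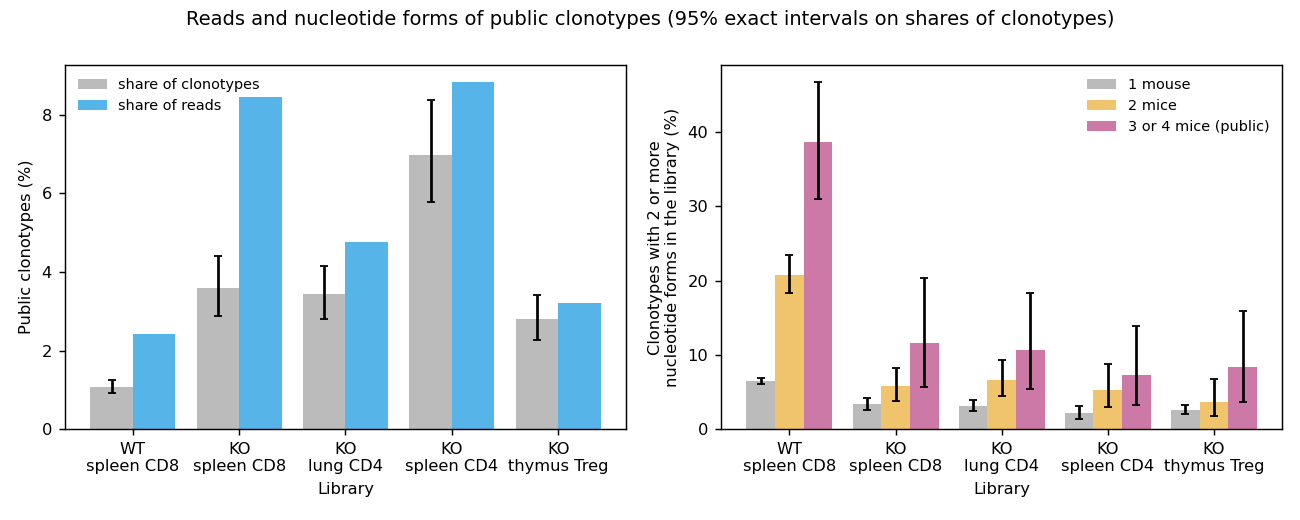
Left, public clonotypes as percent of the clonotypes and of the reads of each library, right, percent of clonotypes with at least 2 nucleotide forms in the library, by number of mice that hold the clonotype, with exact 95% intervals on shares of clonotypes. The share of reads is above the share of clonotypes in each library, most in KO spleen CD8, and the share with several forms is highest for public clonotypes in each library.

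Reads of a public clonotype were seldom even across the mice. In 141 of 169 a single library held at least 50% of the reads, and in 22 at least 90%. These are raw reads, not scaled to the total of each library, and they were not compared with clonotypes of 2 mice. The most read public clonotype, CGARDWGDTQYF (TRBV20, TRBJ2-5), had 3941 reads in KO spleen CD8, 109 in Tregs, 53 in WT spleen CD8, 12 in KO lung CD4 and 0 in KO spleen CD4. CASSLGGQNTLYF with TRBV12-2 had 3472 reads in KO spleen CD8, 92 in KO spleen CD4, 42 in WT spleen CD8 and 9 in KO lung CD4. The most read clonotype with TRBV17 and TRBJ2-1, of 15 residues, had 1820 in KO spleen CD8, 140 in WT spleen CD8, 2 in Tregs and 1 in KO lung CD4. All 3 had nearly all of their reads in the same library. By contrast, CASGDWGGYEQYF (TRBV13-2, TRBJ2-7) was high in KO spleen CD4, with 1446 reads against 48 in KO lung CD4 and 20 in WT spleen CD8. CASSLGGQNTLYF with TRBV15 was again high in KO spleen CD8, with 896 reads against 75 in KO spleen CD4, 15 in KO lung CD4 and 6 in WT spleen CD8. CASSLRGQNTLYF (TRBV12-2, TRBJ2-4) had 655 reads in KO spleen CD8, 234 in WT spleen CD8, 33 in KO lung CD4 and 18 in Tregs, the least uneven of the 8 most read. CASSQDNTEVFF (TRBV2, TRBJ1-1) was high in KO lung CD4, with 838 reads against 70 in Tregs and 25 in KO spleen CD4. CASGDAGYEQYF (TRBV13-2, TRBJ2-7) was high in Tregs, with 485 reads against 83, 9 and 3 in WT spleen CD8, KO spleen CD8 and KO lung CD4.

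Filters for carry-over between libraries and for sequencing errors left most of the public clonotypes. With forms left out wherever they had under 1% of the same form's reads in another library, 162 public clonotypes were left. With forms left out that were 1 base away from a form with at least 10 times the reads, 165 were left. The carry-over filter cannot show that carry-over is absent, since a single read passes unless another library has many more reads of the form. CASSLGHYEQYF, with 1 read in Tregs and 58 in KO spleen CD4, passes it. Of the public clonotypes, 30 had a library at 1 read, and 76 had at least 10 reads in 3 or more mice.

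The clonotypes found in all 5 libraries were few. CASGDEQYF had 67 reads in KO lung CD4, 34 in KO spleen CD4, 21 in KO spleen CD8, 20 in Tregs and 16 in WT spleen CD8, all from 1 nucleotide form. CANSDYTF had 3 to 8 reads in each library, also from 1 form, and at 8 residues it is the shortest public CDR3. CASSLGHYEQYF (TRBV15, TRBJ2-7) had 58 reads in KO spleen CD4, 56 in KO spleen CD8, 12 in KO lung CD4 and 1 each in Tregs and WT spleen CD8. Its form with a listed D segment was read in KO spleen CD4 and Tregs and its other form in the remaining 3 libraries. Among the others in all 4 mice, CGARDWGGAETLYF had 218 reads in KO lung CD4, 171 in Tregs, 102 in KO spleen CD4 and 20 in WT spleen CD8. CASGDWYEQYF (TRBV13-2, TRBJ2-7) had 215 in Tregs, 115 in KO lung CD4, 91 in KO spleen CD4 and 6 in WT spleen CD8. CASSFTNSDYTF had 131, 77, 46 and 7 in KO lung CD4, KO spleen CD4, Tregs and WT spleen CD8. None of these last 3 was found in KO spleen CD8. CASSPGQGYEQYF (TRBV12-2, TRBJ2-7) had 153 reads in KO spleen CD4, 38 in WT spleen CD8, 15 in KO spleen CD8 and 2 in Tregs. A clonotype of TRBV1 with TRBJ1-1 and another of TRBV13-2 with TRBJ1-2 were in all 4 mice as well, with 111 and 95 reads in total. None of these was read in KO lung CD4. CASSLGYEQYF had 806 reads in KO spleen CD8, 79 in KO spleen CD4, 19 in WT spleen CD8 and 3 in Tregs, all from the 1 form shown at the start.

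The clonotypes with most reads lay outside the threshold of 3 mice. The 3 most read clonotypes just inside it, at exactly 3 mice, are those led by KO spleen CD8 above, with 4115, 3615 and 1963 reads in total. Just outside it, in 2 mice, were a clonotype of TRBV1 and TRBJ1-2 with 13241 reads, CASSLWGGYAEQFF (TRBV12-2, TRBJ2-1) with 6430 and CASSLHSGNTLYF (TRBV14, TRBJ1-3) with 4557. These 3 were also led by KO spleen CD8 and were found with 110, 26 and 13 reads in WT spleen CD8.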

How the data were processed

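TCRβ libraries of sorted T cells were made with the SMARTer kit for mouse TCR chains, according to the labels' protocols. The build was mm10, as the submitters' processing notes give it, and which aligner, caller or error correction was used is not given in the sources used here. Deposited tables hold whole read counts per CDR3 nucleotide sequence and the fraction of reads that each count makes up, per the file headers. They also give segment names and the positions of segment ends as other values in bases, counted from 0. Total counts ran from 98655 to 205882 per library.

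Computed here were clonotypes per CDR3 amino acid sequence, V and J, the number of mice holding each, and the bases between the listed ends. The most read nucleotide form stood for a clonotype in a library. Shares carry exact Clopper-Pearson 95% intervals (scipy 1.17.1, pandas 2.3.3), and means over mice carry SDs. The scripts were tested on simulated data. Segment coordinates came from RefSeq (GRCm38.p6). The clonotypes named are up to 12 in all 4 mice, the 8 with most reads, 5 with most inserted bases, 5 with most nucleotide forms in a library (ties broken by reads) and 3 on either side of the threshold, by reads. Segments named are those called, those of the NKT, MAIT and superantigen lists, and the TRBJ1 cluster. The members, lists and settings were chosen with earlier results of these data known. Alternatives varied the minimum reads, the number of clonotypes per library, the definition of a clonotype, the number of mice, error and carry-over filters and the libraries used.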

Additional observations from a re-analysis of the deposited data

Results flagged for a closer look

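Sequences outside the definition used here, because they were out of frame, held a stop codon, or had other ends or lengths, were not part of any comparison, and 38 of these 4578 nucleotide sequences were found in at least 3 mice (0.830%, 0.588 to 1.14). They were singled out because they are a signal in data that no comparison uses, and there is no control library for them. The share was above that of the standard nucleotide forms, 83 of 25624 (0.324%, 0.258 to 0.401), with no overlap of the intervals. Among those that were out of frame, started with Cys and were 24 to 60 bases long, 2 of 2092 (0.0956%, 0.0116 to 0.345) were found in at least 3 mice, and the interval overlaps that of the standard forms. In exactly 2 mice were 1 of these out-of-frame sequences (0.0478%) and 764 of the standard forms (2.98%).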

How the results depend on the processing

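The differences in inserted bases, in the share without them, in CDR3 length, in several forms per library and in recurrence kept their direction under all alternatives run, while the number of public clonotypes followed the definition. It was 68 with at least 10 reads per form, 20 among the 1000 most read clonotypes per library, 83 by nucleotide sequence, 416 by CDR3 alone, 1353 for at least 2 mice and 13 for 4 mice. Public clonotypes with a single form in 3 mice numbered 31, 7 and 131 with at least 10 reads, with 1000 clonotypes and by CDR3 alone. With 1000 clonotypes per library the differences were -0.715 inserted bases and 19.5 percentage points without them, several forms differed by 26.5 percentage points, public reads were 1.77% on average in place of 5.27%, and 5 J segments were called in place of 3. Counting all bases between V and J gave -2.88 bases and 6.52 percentage points. The share without inserted bases differed by 51.0 percentage points by nucleotide sequence and 33.4 among CDR3s of 13 residues. By CDR3 alone several forms differed by 25.7 percentage points and public reads were 16.5%. For at least 2 mice public reads were 23.9%, and 5 V and 0 J segments were called. No test underlies these calls, so no unadjusted p exists for that 0. For 4 mice the difference was 37.1 percentage points without inserted bases and -1.58 residues, public reads were 0.434%, and 10 J segments were called. The TRBJ1 difference became 7.89 percentage points by nucleotide sequence and 12.2 for 4 mice. Leaving out a library in turn gave 24 to 118 public clonotypes, 11 to 54 with a form in 3 mice, -1.35 to -1.07 inserted bases, 25.1 to 45.2 percentage points without them, -1.26 to -0.542 residues, -13.3 to 11.3 percentage points for TRBJ1, 1.15% to 4.15% of reads, 9 to 13 V and 3 to 10 J segments. The lowest number of public clonotypes and the lowest share of reads came without WT spleen CD8, and the TRBJ1 difference was above 0 without it (11.3), without KO spleen CD4 (1.96) and without KO spleen CD8 (0.396). Leaving out a library removes its clonotypes by construction, and the cause of the other changes was not tested. No paired analysis was possible because each group had 1 library, so no groups could be paired by replicate number. Public and 1-mouse clonotypes were compared within each library throughout. Depth limits which clonotypes are seen in a library, so absence from a mouse is absence at this number of reads.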
